A study of Homo sapiens with 8 samples.

Results

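The promoters described here are those of protein-coding genes that carried an RNA polymerase II (RNAPII) region in both vehicle libraries and in neither library treated with the CDK9 inhibitor CDDD11-8. A promoter was the window reaching 300 bp to each side of the transcription start site (TSS) of the longest isoform. The rule returned 156 of 19794 protein-coding genes (0.788%), or 156 of the 9987 genes with a promoter region in both vehicle libraries (1.56%). A promoter region was present in all 4 libraries at 9701 genes (49%), called kept promoters below, and in both CDDD11-8 libraries but neither vehicle library at 224 genes (1.13%). Presence or absence of a region in these 4 libraries chose the members, so their vehicle scores and their lack of a CDDD11-8 region are a description without a test.

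The cells were MDA-MB-453, an established human breast cancer cell line, exposed for 4 h to vehicle or to 600 nM CDDD11-8 (labelled D11-8). Each treatment had 2 replicates grown from independent passages, and RNAPII was precipitated with the CTD4H8 antibody. MACS2 called regions in each ChIP library separately against its input. Inputs were not analysed as samples of their own. The experiment was designed to ask where RNAPII sits on chromatin when CDK9 is inhibited.

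RNAPII that initiates at a promoter commonly pauses shortly after the TSS. CDK9, the kinase of P-TEFb, phosphorylates the RNAPII C-terminal domain and the factors that hold paused RNAPII, which allows RNAPII to enter the gene body. Elongating RNAPII continues past the transcription end site (TES) before it is released, so ChIP signal at one TSS may also come from RNAPII that initiated at another gene. Most promoters of broadly active genes lie in CpG islands, stretches rich in C and G with many CpG dinucleotides, whereas promoters of tissue-restricted genes often lack them.

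The sequence upstream of these promoters was mostly poor in CpG. The 250 bases upstream of the TSS are shown for 2 CpG-poor and 2 CpG-rich members, in GRCh37 coordinates and on the strand of the gene, with each CpG dinucleotide in capitals. They had the strongest vehicle regions of their class among 36 candidate members. The candidates lay outside other protein-coding genes, had a vehicle summit at the TSS in both libraries and were free of annotated exons in this window. The CpG-poor windows were BTBD2 (chr19:2034881-2035130, minus strand) and SLFNL1 (chr1:41488910-41489159, minus), with 9 and 2 CpGs.

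BTBD2: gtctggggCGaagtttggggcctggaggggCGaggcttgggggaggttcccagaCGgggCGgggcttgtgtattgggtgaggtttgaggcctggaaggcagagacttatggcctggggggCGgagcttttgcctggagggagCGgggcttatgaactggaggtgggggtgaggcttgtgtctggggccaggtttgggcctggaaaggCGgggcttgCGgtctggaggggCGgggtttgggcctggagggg
SLFNL1: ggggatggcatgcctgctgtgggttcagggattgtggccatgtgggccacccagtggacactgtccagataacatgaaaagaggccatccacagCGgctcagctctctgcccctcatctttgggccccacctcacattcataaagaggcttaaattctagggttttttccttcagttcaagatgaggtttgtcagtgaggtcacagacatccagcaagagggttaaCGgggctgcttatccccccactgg

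The CpG-rich windows were FSTL3 (chr19:676142-676391, plus strand) and GABBR1 (chr6:29595816-29596065, minus), with 36 and 20 CpGs.

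FSTL3: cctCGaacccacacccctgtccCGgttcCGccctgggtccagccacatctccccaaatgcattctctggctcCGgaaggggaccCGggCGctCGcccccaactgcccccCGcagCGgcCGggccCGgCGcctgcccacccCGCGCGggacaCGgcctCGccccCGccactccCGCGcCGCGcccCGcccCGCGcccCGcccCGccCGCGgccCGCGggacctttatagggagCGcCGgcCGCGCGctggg
GABBR1: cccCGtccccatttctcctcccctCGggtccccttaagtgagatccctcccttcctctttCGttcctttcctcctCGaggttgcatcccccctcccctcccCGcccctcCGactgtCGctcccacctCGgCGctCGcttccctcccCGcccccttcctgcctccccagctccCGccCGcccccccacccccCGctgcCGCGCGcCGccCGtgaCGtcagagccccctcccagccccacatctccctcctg

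The libraries differed in how many regions were called. The vehicle lists held 78306 and 57493 regions and the CDDD11-8 lists 25897 and 21842, covering 108 and 87.3 Mb against 67.7 and 54.6 Mb. The number of genes with a promoter region did not fall in parallel, with means of 10300.5 ± 124 genes in the vehicle libraries (SD, n = 2) and 10464.5 ± 279 after CDDD11-8 (SD, n = 2). The difference of 164 genes did not exceed the spread between replicates (p = 0.667 by exact permutation, two-sided). The smallest p this design allows is 0.33. That value was reached with a stricter q-value limit and with equal region numbers, where the difference was larger, as given under processing. All 10 markers of luminal androgen receptor-positive breast cells had a promoter region in every library, and none of 5 basal or myoepithelial markers had one in any. None of 3 fibroblast markers and 1 annotated endothelial marker had a promoter region in both vehicle libraries. Region numbers moved with treatment, and their part in the loss of the 156 regions was not tested. Cutting each list to its strongest 21842 regions returned 76 genes, 71 of them among the 156. That setting leaves CDDD11-8 replicate 2 whole, so the members it drops are those with lower vehicle ranks. Requiring 3 libraries in place of 4 gave 247 genes without vehicle replicate 1, 272 without vehicle replicate 2, 274 without CDDD11-8 replicate 1 and 168 without CDDD11-8 replicate 2, all of which included the 156.

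Within the vehicle lists the members had weaker regions than kept promoters. The median fold enrichment of their regions was 4.17 in vehicle replicate 1 and 4.06 in replicate 2, against 6.15 and 8.43 at kept promoters. When the regions of each list were ranked by q-value, the members had median percentiles of 77.1 and 73.3, against 94.1 and 92.0. Their regions were also narrower, with medians of 1565.5 and 1177 bp against 3035 and 3139 bp. The members were therefore mostly above the middle of their lists and mostly below the kept promoters, and only 13 and 10 of the 156 exceeded the median percentile of kept promoters in replicates 1 and 2.

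**Figure D1:**
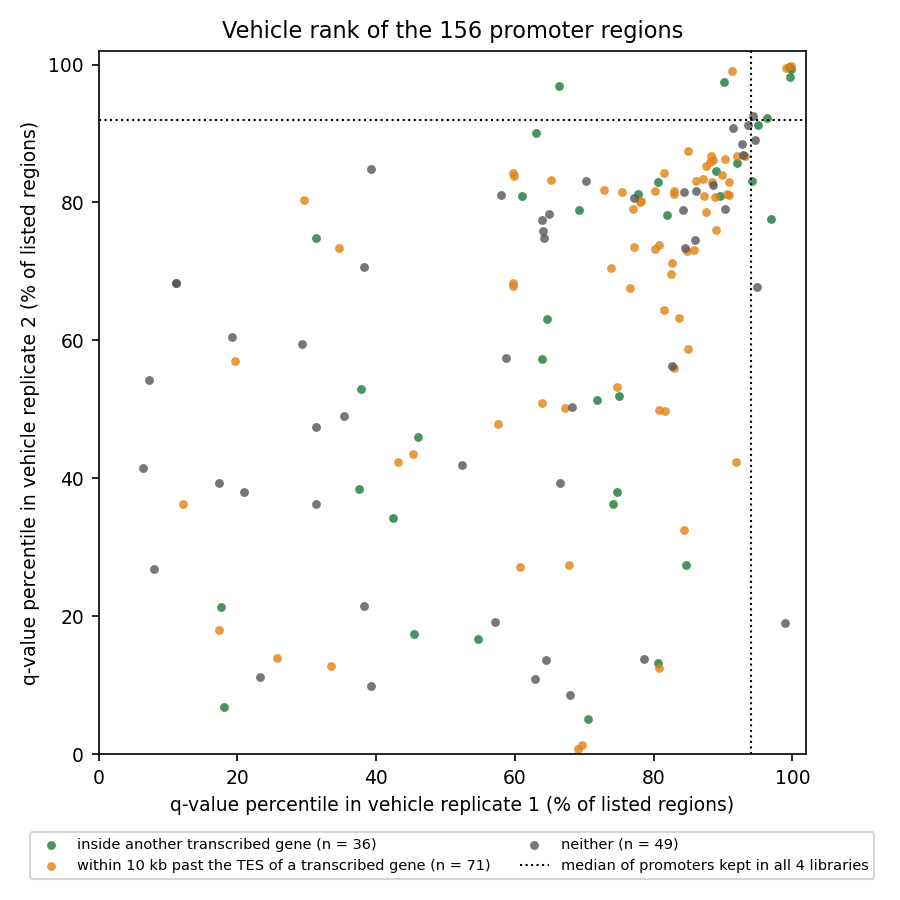
Percentile of the promoter region by q-value in vehicle replicate 1 (horizontal) and replicate 2 (vertical) for the 156 members, each 1 point, coloured by the position of the TSS. Dotted lines are the median percentiles of the 9701 kept promoters, 94.1 and 92.0, and most members lie below and to the left of them.

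The spread among members was wide, as the plot of vehicle percentiles shows. At least the 90th percentile was reached in both vehicle libraries by 12 members, whereas 22 lay below the 50th in both. The region was under 1 kb wide in both libraries at 39 members and 5 kb or wider in both at 16. A summit lay within 300 bp of the TSS in both vehicle libraries at 87 members (55.8%). In single libraries it did so at 75.6% and 73.1% of members, compared with 90.4% and 89.1% of kept promoters. At members with such a summit, the strongest one had a median fold enrichment of 3.31 in replicate 1 and 3.42 in replicate 2, compared with 5.38 and 7.76 at kept promoters. This fold was below the highest fold of the same region at 60 of 118 and 48 of 114 members (50.8% and 42.1%). For these the highest fold came from elsewhere in the region. The same held at 36.7% and 25.8% of kept promoters with such a summit.

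Most of the strongest regions at member promoters were several kb long. BTBD2, a BTB domain gene at chr19:1993100-2034880 (minus strand), had the highest rank of all members. Its region measured 18213 bp with fold 11.9 in vehicle replicate 1 and 18298 bp with fold 24.7 in replicate 2. The strongest summit within 300 bp of the TSS had folds of only 2.19 and 1.86. The TSS lay 2590 bp past the TES of MKNK2, a kinase gene on the same strand, and the nearest CDDD11-8 regions stood 866 and 2493 bp upstream. The vehicle score of BTBD2 thus belonged to a region that also held a kept TSS.

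CPT1B (chr22:51007290-51016856, minus strand), the muscle isoform of the enzyme that passes long-chain fatty acids into mitochondria, starts 536 bp past the TES of CHKB, a choline kinase gene. Its vehicle regions had folds of 6.34 and 18.4, with 2.53 and 3.71 at the strongest summit within 300 bp of the TSS. Regions covered 80.6% and 64.9% of its gene body with vehicle and 0% in both CDDD11-8 libraries. All of the stretch from the CHKB TES to the CPT1B TSS was covered with vehicle, and none of it with CDDD11-8. The rule itself empties the 300 bp of this 536 bp stretch nearest the TSS with CDDD11-8, so most of that absence was set by the rule. Of the 25 genes named by rule, CPT1B and ARHGAP30 stayed members under every change of window, q-value, region number, summit, merging, TSS and isoform tried, the settings that can end a call. The others were lost under at least 1 of them.

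ARHGAP30 (chr1:161016739-161039760, minus strand), a GTPase-activating protein gene of blood cells, starts 1028 bp past the TES of NECTIN4. Its vehicle folds were 5.42 and 4.15, and the nearest CDDD11-8 regions were 13268 and 13489 bp upstream. Its promoter and the clone-named gene AL591806.1, which starts inside its intron on the other strand, shared 1 region in vehicle replicate 2. CAPS2 and GLIPR1L2, a pair of genes that start back to back, shared their region in both vehicle libraries, so the 156 members rested on 155 and 154 separate regions.

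Of the 10 members with the strongest vehicle regions, 7 had another annotated TSS that kept a region in both CDDD11-8 libraries. They were BTBD2, SEPTIN1, JPT1, PCK2, FSTL3, PILRB and GABBR1, and the others were CPT1B, AP000304.1 and ENSG00000288644. PCK2 (chr14:24569358-24579807, plus strand), the mitochondrial enzyme that makes phosphoenolpyruvate, had vehicle folds of 12.3 and 9.56, and its own other TSS, 3294 and 2914 bp upstream, held CDDD11-8 regions of fold 40.0 and 17.5. FSTL3 (chr19:676392-683385, plus strand), a secreted activin-binding protein, had vehicle folds of 5.24 and 8.98 and CDDD11-8 regions of fold 25.2 and 16.7 at another TSS of its own, 1213 and 2144 bp downstream. These genes lost the region at the start of the longest isoform and not at every start. Another kept TSS was present at 39 of the 156 members in all. With the canonical isoform of each gene in place of the longest, 126 genes met the rule and 116 of them were among the 156, with BTBD2, JPT1, PCK2, PILRB and GABBR1 among those lost.

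A member TSS commonly lay in or just past another gene that carried promoter RNAPII. A gene was called transcribed when its own promoter had a region in both vehicle libraries. The TSS lay inside another transcribed protein-coding gene at 36 members (23.1%, 95% Wilson interval 17.2 to 30.3, counting error only), compared with 11.0% of kept promoters and 3.29% of genes with no region in any library. A further 71 members (45.5%) started within 10 kb past the TES of a transcribed gene, compared with 17.7% of kept promoters. Together these were 107 members (68.6%) against 28.8% of kept promoters, which left 49 members in neither position. When genes with no approved symbol and readthrough models named for a pair of genes were not accepted as the other gene, 19.2% of members and 9.16% of kept promoters lay inside one, and 68.6% and 27.8% lay inside or past one. When presence was read from summits in place of regions, 225 genes met the rule, 87 of them among the 156, and the shares were 14.2% inside and 40.4% inside or past.

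**Figure D2:**
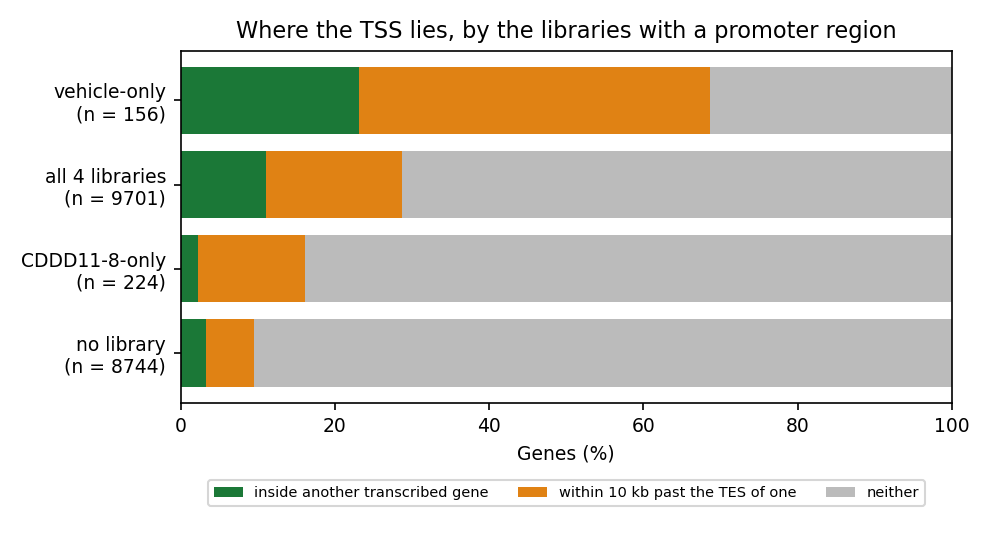
Share of genes (%, horizontal) whose TSS lay inside another transcribed protein-coding gene, within 10 kb past the TES of one, or in neither position, for genes grouped by the libraries with a promoter region. Members (vehicle-only) reach 68.6% for both positions together, against 28.8% of genes with a region in all 4 libraries.

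Most of the 36 enclosing genes kept their own promoter region, and the median coverage of their bodies was lower with CDDD11-8. A promoter region remained in both CDDD11-8 libraries at 34 of them. The median share of the body covered by regions, which began 300 bp into the gene and ran on for 3 kb beyond its end, was 47.9% and 32.7% with vehicle and 11.6% and 8.44% with CDDD11-8. Each of these genes encloses a member TSS, around which the rule leaves no region with CDDD11-8, so the lower coverage is not independent of the rule. The member TSS fell in an intron of the longest enclosing gene at 23 members and in an exon at 13, and the strands were the same at 18 and opposite at 18. Gene body coverage fell with treatment at kept promoters too, from medians of 18.9% and 13.8% to 9.21% and 7.70% (means of 34.3% and 30.3% to 24.2% and 19.98%).

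JPT1 (chr17:73132243-73164376, minus strand), a gene of microtubule regulation, gave the broadest example. The longest isoform starts in an exon of SUMO2, a small ubiquitin-like modifier gene on the same strand, whose body was covered over 100% in both vehicle libraries and over 21.8% and 16.9% in the CDDD11-8 libraries. The JPT1 region was 43541 bp wide in vehicle replicate 1 and 23071 bp in replicate 2. SEPTIN1 (chr16:30389456-30394136, minus strand), a septin gene used in lymphocytes, starts in an intron of ZNF48 on the other strand and had vehicle folds of 7.55 and 14.6. Here the enclosing body changed less, from 60.6% and 57.7% to 55.1% and 44.6%, and regions over the ZNF48 promoter remained 828 and 1846 bp away. Other members inside transcribed genes were PCK2 in NRL, AP000304.1 in SON and ENSG00000288644 in ZC3H11A.

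For the 71 members past a TES, the stretch between the TES of the neighbour and the member TSS mostly held no region with CDDD11-8. Its median length was 2230 bp, and the neighbour lay on the same strand at 59 (83.1%, against 75.7% of kept promoters in this position). The median share of the stretch covered was 83.8% and 67.5% with vehicle and 0% in both CDDD11-8 libraries. No base of it was covered at 60 and 68 members in CDDD11-8 replicates 1 and 2, compared with 1 and 3 with vehicle. The rule itself empties the last 300 bp of the stretch with CDDD11-8. Those bases were cut where the neighbour was on the same strand. At opposite-strand neighbours (12 of the 71) the measured stretch instead ran about 300 bp past the TSS, so it still held emptied bases. Over the 63 members with a stretch long enough to measure, the medians were 82.0% and 65.5% with vehicle and 0% in both CDDD11-8 libraries. Of these, 54 and 60 were empty with CDDD11-8. Bases outside the window can belong to the same vehicle region that met the rule, so their loss is not independent of it. The stretch was not measured at kept promoters past a TES. The neighbours kept a promoter region in both CDDD11-8 libraries at 70 of the 71, while their bodies went from medians of 39.0% and 25.03% to 8.31% and 6.63%. Those bodies were measured to 3 kb past the TES, farther than the median stretch of 2230 bp. Many therefore held the emptied window, and their fall is not independent of the rule either.

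HAMP (chr19:35771619), which encodes the liver iron hormone hepcidin, starts 895 bp past the TES of the transcription factor gene USF2. LCT (chr2:136594754), the intestinal lactase gene, starts 2442 bp past the TES of MCM6, a replicative helicase gene. HAMP had vehicle folds of 5.42 and 6.65 and LCT 7.47 and 8.44. The stretch between was covered over 100% and 100% at HAMP and over 95.5% and 92.4% at LCT with vehicle, and over 0% at each with CDDD11-8. For both of these tissue-restricted genes the same picture held in each replicate.

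**Figure D3:**
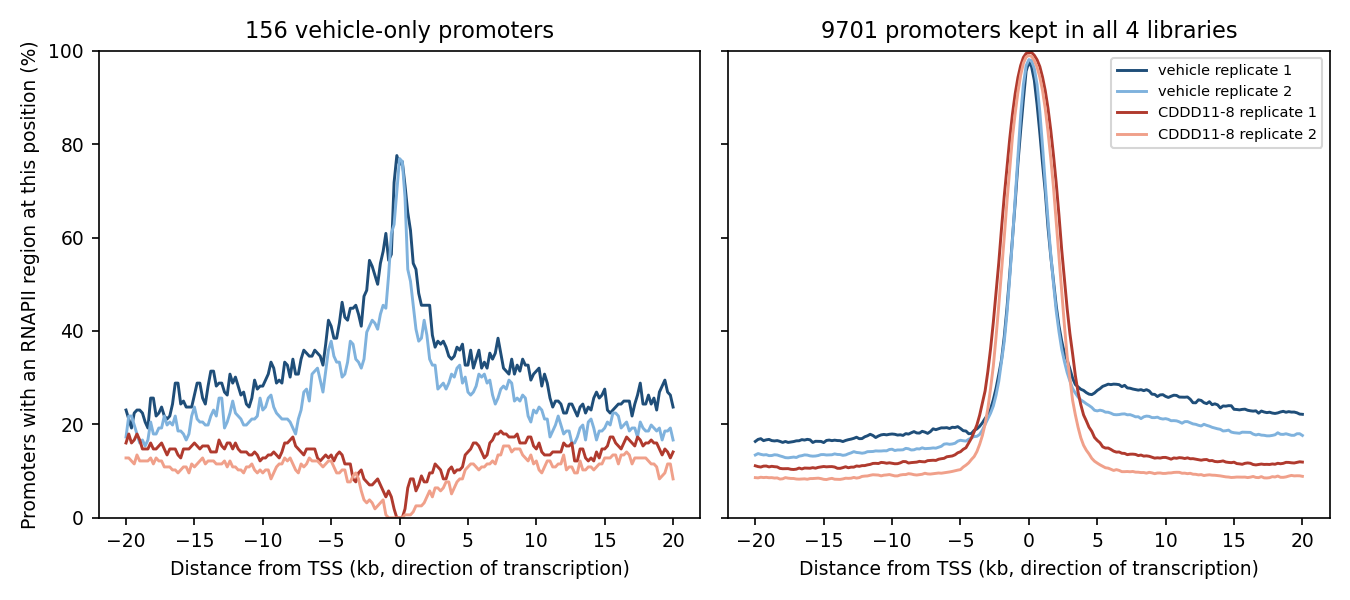
Percent of promoters covered by a region (vertical) at each distance from the TSS (kb in the direction of transcription) in the 4 libraries, for the 156 members (left) and the 9701 kept promoters (right). The CDDD11-8 curves of members reach 0% at the TSS by the rule, and the vehicle curves of members are higher than those of kept promoters at 2 and 5 kb upstream but not at 1 kb.

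The plot of coverage around the TSS shows that regions reached well upstream of members with vehicle. At 1 kb upstream fewer members than kept promoters were covered with vehicle, 60.9% and 44.9% against 67.5% and 68.4%. At 5 kb upstream 41.0% and 37.8% of members were covered with vehicle, against 19.1% and 16.6% of kept promoters. With CDDD11-8 the same position was covered at 13.5% and 12.2% of members and 14.2% and 10.3% of kept promoters. At 2 kb upstream the members went from 53.8% and 42.3% to 7.05% and 3.21%, and 2 kb downstream from 45.5% and 39.1% to 7.69% and 4.49%. Coverage was thus lower on both sides of the TSS outside the window that the rule used. Member regions with vehicle had median widths of 1565.5 and 1177 bp and often ran past that window. The lower coverage near the TSS and over short gene bodies is therefore not independent of the rule. Over their own gene bodies the members had mean coverage of 35.6% and 29.5% with vehicle, close to the 34.3% and 30.3% of kept promoters, and of 11.7% and 8.07% with CDDD11-8. The body held no region at 16 and 14 members with vehicle and at 84 and 100 with CDDD11-8.

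The members also differed from kept promoters in sequence. From 250 bp upstream to 50 bp downstream of the TSS the median ratio of observed to expected CpG was 0.301 in members, 0.862 in kept promoters and 0.745 in all genes. A promoter was called CpG island-like when this ratio was at least 0.6 and its GC content at least 50%. This applied to 30 members (19.2%), 85.7% of kept promoters and 60.4% of all genes. The share was 48.4% of the 225 genes returned with summits and 35.2% of the 247 returned without vehicle replicate 1. Median GC content was 55.8% against 65.3% in kept promoters, and the median gene span was 9.67 kb against 27.8 kb. Genes with no region in any library were closer to members in sequence. Their median CpG ratio was 0.382, their median GC content 55.3% and their island-like share 33.0%, with a median span of 21.2 kb. Low CpG content was thus not particular to members.

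The share of promoters that lost their region differed by CpG class and by position. Among genes with a promoter region in both vehicle libraries, island-like promoters were members in 30 of 8393 cases (0.357%, 95% Wilson interval 0.250 to 0.510) and the others in 126 of 1594 (7.90%, 6.68 to 9.33). Among those others, the members made up 60 of 408 past a TES (14.7%, 11.6 to 18.5), 32 of 313 inside a transcribed gene (10.2%, 7.34 to 14.1) and 34 of 873 in neither position (3.89%, 2.80 to 5.39). Among island-like promoters they made up 15 of 2242 inside or past a transcribed gene (0.669%, 0.406 to 1.10) and 15 of 6151 in neither position (0.244%, 0.148 to 0.402). Loss was thus uncommon in every class, and most CpG-poor promoters past a TES kept their region. Members below the CpG criteria lay inside or past a transcribed gene in 73.0% of cases, against 41.8% of kept promoters below them.

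Motif letters were searched on both strands of the same window. TATAAA was present in 13.5% of members, 4.81% of kept promoters and 10.0% of all promoters. CCAAT was present in 36.5%, 37.9% and 35.3%, CACGTG in 4.49%, 10.8% and 8.78%, and the E2F-type letters TTCGCGC or TTGGCGC in 4.49%, 9.71% and 6.45%. In genes with no region in any library the shares, in the same order of motifs, were 16.1%, 33.2%, 6.44% and 3.23%. Motifs with CpG in them were less frequent in members than in kept promoters, and member windows held fewer CpGs.

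The nearest RNAPII region left with CDDD11-8 was usually several kb away. The median distance from the member TSS was 7474 bp in replicate 1 and 13514 bp in replicate 2, with quartiles of 1653 and 27172 bp and of 4499 and 37163 bp. The smaller of the 2 distances had a median of 7474 bp, against 78689 bp for genes with no region in any library. It was at most 1 kb at 28 members, 2 kb at 43, 5 kb at 67, 10 kb at 82 and 50 kb at 132, and exceeded 100 kb at 16. The distance was greater in replicate 2, whose list is the shorter, at 126 members. The median smaller distance was 540 bp with summits, 12930 bp with a 1000 bp window and 12335 bp without vehicle replicate 1.

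**Figure D4:**
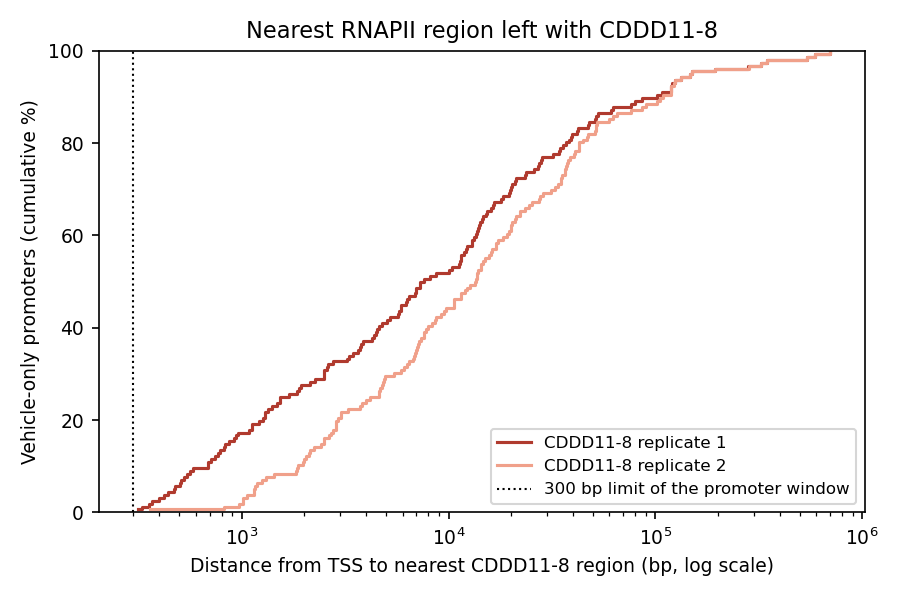
Cumulative share of the 156 members (%, vertical) by distance from the TSS to the nearest CDDD11-8 region (bp, log scale), with 1 line per CDDD11-8 library and the 300 bp limit of the promoter window dotted. The medians are 7474 bp in replicate 1 and 13514 bp in replicate 2.

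The nearest region lay upstream of the TSS at 81 members in replicate 1 and 85 in replicate 2, and on the same side in both at 132. It held the TSS of another protein-coding gene at 60 and 78 members, another TSS of the same gene at 32 and 26, and no annotated TSS of either kind at 72 and 57. A region at no listed TSS was thus the nearest one at fewer members in replicate 2 than in replicate 1.

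The 5 members closest to the limit had regions just outside the window. MDK, the growth factor midkine, had one at 316 bp in replicate 1 but 9150 bp in replicate 2. CPT1C, the brain form of carnitine palmitoyltransferase, had distances of 328 and 1435 bp, A1BG, a plasma glycoprotein gene, 358 and 3033 bp, and ASIC3, an acid-sensing ion channel gene, 370 and 6767 bp. PRCD, a photoreceptor disc gene, was close in both, at 419 and 360 bp. Just on the other side of the limit, the smaller distance was 300 bp for SPATA7, 287 bp for CFAP141 and 264 bp for STAT6, genes that carried a region in both vehicle libraries and were not members because a CDDD11-8 region reached the window. The limit therefore separates genes whose nearest regions differ little in distance.

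The 5 farthest members were over 300 kb from any CDDD11-8 region, and their vehicle scores were mixed. MME, the membrane peptidase neprilysin, stood 698003 and 698069 bp from the nearest CDDD11-8 region, which lay at DHX36, and had vehicle folds of 3.10 and 2.66 at percentiles 23.3 and 11.3. GAS1, a Hedgehog co-receptor gene, was 591561 and 591053 bp away with folds of 2.33 and 4.22 at percentiles 7.31 and 54.2. OTUD7A, a deubiquitinase gene, was 543585 and 543498 bp away with folds of 2.38 and 4.89 at percentiles 64.0 and 75.9. The oncogene MYCN was 346729 and 346421 bp away with folds of 2.38 and 2.65 at percentiles 38.3 and 21.5. P2RY1, a platelet ADP receptor gene, was 324480 and 324539 bp away with folds of 2.37 and 4.17 at percentiles 63.9 and 77.4. In vehicle replicate 1 all 5 had folds below the member median of 4.17, whereas in replicate 2 GAS1, OTUD7A and P2RY1 were above the median of 4.06. With equal numbers of regions none of the 5 stayed a member. MME, GAS1 and MYCN were also lost with the stricter q-value limit, at which OTUD7A and P2RY1 stayed. Members in neither position had lower vehicle ranks as a group, with a median lower percentile of 42.0, against 72.9 for those past a TES and 62.1 for those inside a gene.

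Some member genes are known for functions in tissues other than breast epithelium. Genes of these kinds were not counted among kept promoters or all genes, so whether members hold more of them is unknown. The groups below were made from the member symbols after they were seen, so they carry no test, and over all members 68.6% lay inside or past a transcribed gene and 80.8% were below the CpG criteria. Blood cell genes numbered 13, among them CD37, CD27, FCER1G, HCLS1, GP6, SPIB and IL23A, and 10 of the 13 lay inside or past a transcribed gene. HCLS1, a cortactin-like signalling protein of haematopoietic cells, starts 2296 bp past the TES of GOLGB1 and had vehicle folds of 5.15 and 5.07. GP6, the platelet collagen receptor, starts 6079 bp past RDH13 with folds of 8.18 and 5.11. The stretch from the TES was covered over 86.6% and 91.1% at HCLS1 and over 96.9% and 78.7% at GP6 with vehicle, and over 0% at each with CDDD11-8. The leukocyte markers PTPRC and CD3E had no promoter region in any library, so the vehicle regions at these blood cell genes were not accompanied by regions at those markers.

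Striated muscle genes numbered 6, among them CPT1B, ANKRD23, ASB16, TMOD4 and NPPA, of which 5 lay inside or past a transcribed gene and all 6 were below the CpG criteria. NPPA, the atrial natriuretic peptide gene, starts 5202 bp past CLCN6 on the other strand, with vehicle folds of 4.65 and 2.33 and percentiles of 69.6 and 1.35. Liver genes numbered 5 (A1BG, F7, HAMP, CYP2E1 and HGD), with 3 in such a position. F7, coagulation factor VII, was in neither position, with folds of 3.71 and 4.05. Neuronal and sensory genes numbered 9, of which 6 lay inside or past a transcribed gene. OPN1SW, the short-wave cone opsin, starts 2394 bp past CALU on the other strand with folds of 4.998 and 3.984, and CHRNA10, a nicotinic receptor subunit of hair cells, starts 3627 bp past NUP98 with folds of 4.45 and 5.50.

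Gene families were counted among genes with a promoter region in both vehicle libraries, of which 1.56% were members over all genes. Members numbered 1 of 379 ZNF genes, 0 of 8 keratin genes and 4 of 162 solute carriers (SLC10A5, SLC23A3, SLC35D2 and SLC39A5). They numbered 2 of 13 ion channel genes (KCNJ13 and KCNJ14) and 15 of 198 genes without an approved symbol. No olfactory receptor gene had a vehicle region in both libraries, so none could be a member. All 13 immediate-early genes and all 18 genes of CDK9 and elongation control with such a region were kept. The CDK9 target MYC and the elongation gene CDK9 thus kept a promoter region in all libraries.

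Some member regions lie in near-identical copies where aligned reads cannot be assigned with certainty. SULT1A1, SULT1A3 and SULT1A4 are paralogous sulfotransferase genes on chromosome 16, and AC005488.1 and AC006014.1 have near-equal values, with vehicle folds of 10.3 and 6.96 at the first and 9.81 and 5.87 at the second. NPIPB5 belongs to another such family. Their calls are uncertain, and other members were not examined for copies.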

How the data were processed

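RNAPII ChIP-seq libraries of MDA-MB-453 cells (2 vehicle, 2 CDDD11-8) were compared as peak lists. The authors used Bowtie 2 to align 150 bp paired-end reads to GRCh37, and MACS2 to call peaks per library, against a paired input, with versions not given in the sources used here. The deposited pileup is a scaled signal at each summit, the deposited fold enrichment is a ratio to local background, and the deposited p-value and q-value are on the −log10 scale. Region length and summit position, also deposited, are in bp. No read counts were given, so the depth behind each region is unknown, and Wilson intervals cover counting error only.

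Summits sharing coordinates were read as 1 region. The smallest listed −log10 q-value was 2.00. TSS and TES came from GENCODE release 44 mapped to GRCh37, with the longest protein-coding transcript of each symbol, and sequences were read from GRCh37. An exact permutation test (two-sided) compared the numbers of promoters per library. All other values are descriptions. The members and gene lists were chosen with earlier results of these data known. Named genes were the 10 strongest by the lower vehicle q-value, the 5 farthest and 5 nearest to a CDDD11-8 region, the 5 strongest outside other genes with a summit at the TSS, the 5 strongest inside transcribed genes, and members sharing a region. Others were named after their values were seen. A few genes and sequences are not reported here. Alternatives covered the window, q-value, equal region numbers, summits, merging, isoform, gene position and each replicate. The code of the rule was run on simulated regions without noise and recovered every planted promoter. This checks the code only, not how well the rule finds loss in real lists. Analyses ran in Python 3.11.15 with pysam 0.24.0, pandas 2.3.3, numpy 2.4.6, matplotlib 3.10.9 and scipy 1.17.1.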

Additional observations from a re-analysis of the deposited data

How the results depend on the processing

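The number of members, 156, was within 1.5 times of that value with windows of 100, 500 or 1000 bp, a −log10 q-value of at least 5, summits in place of regions, merged regions, no annotated TSS of the gene near a region of either CDDD11-8 library, and the canonical isoform. It was 76 with equal numbers of regions and 168 to 274 when 1 library was left out (247 without vehicle replicate 1, 272 without vehicle replicate 2, 274 without CDDD11-8 replicate 1). The same-numbered libraries did not deviate together (r = -0.0377 over 9701 promoters), and taking a replicate pair on its own as a block gave 284 genes for pair 1 and 428 for pair 2. The blocked difference in genes with a promoter region was 164 with p = 1 by the exact permutation test. That difference ranged from -33.5, without CDDD11-8 replicate 1, to 361.5 when 1 library was left out. With all 4 libraries it was 313.5 at the stricter q-value and 776 with equal numbers of regions. Both gave p = 0.33 by the exact permutation test, the smallest this design allows. The difference was 14.5 with summits, 86 to 254 with the other windows, 161 with merged regions and 201 with the canonical isoform, all with larger p. The share of members inside a transcribed gene, 23.1%, was 14.2% with summits, 39.7% with genes of any type, and 53.8% and 68.6% when genes were extended 3 and 10 kb past the TES. The share inside or within 10 kb past one was 77.6% with equal numbers, 40.4% with summits and 60.3% to 65.8% when 1 library was left out, lowest without vehicle replicate 1. The island-like share was 48.4% with summits and 16.9% to 35.2% with 1 library left out, highest without vehicle replicate 1. The median distance was 12930 bp with a 1000 bp window, 540 bp with summits and 7123 to 12335 bp with 1 library left out, longest without vehicle replicate 1. The share with a summit at the TSS was 65.8% with equal numbers and 54.8% to 74.3% with 1 library left out, highest without vehicle replicate 2, when only 1 vehicle library has to hold it. The median vehicle percentile, 63.6 for the lower library, was 71.2, 60.5 and 51.9 with windows of 100, 500 and 1000 bp, 59.8 at the stricter q-value, 50.1 with equal numbers, 68.9 with summits and 62.1 to 67.3 with 1 library left out. The causes were not tested, except that summit and equal-number settings use other features or fewer regions by construction, and 87 and 71 of the 156 members were shared with them. The canonical isoform, and every alternative for the inside-or-past and island-like shares, were chosen after the data were seen. With 2 libraries in each treatment and no read counts, absence of a region means only that none passed the caller's threshold, and signal below it was not measured.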
